A study of Mus musculus with 6 samples.

Results

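Metallothioneins and zinc transporters set how much zinc a T cell takes up, stores and releases, and 7 genes of this system were followed in WT and RORγt N275D Th17 cells: the metallothioneins *Mt1* and *Mt2*, the zinc-sensing transcription factor gene *Mtf1*, the exporter gene *Slc30a1*, and the importer genes *Slc39a6*, *Slc39a8* and *Slc39a10*. They were picked by gene symbol from the 16244 genes of the RNA-seq table, in which all 7 were found. The cells were spleen-derived naive CD4+ T cells that were stimulated through CD3 and CD28 and kept for 3 days under pathogenic Th17 conditions with IL-6, IL-1β and IL-23. These are the cytokines that the paper's results name. Its methods describe them as additions to a conventional mix that also held TGF-β and antibodies against IL-4 and IFN-γ. The WT group (3 libraries) came from C57BL/6 mice, and the N275D group (3 libraries) came from knock-in mice on a C57BL/6 background that carry a single amino acid change in RORγt, the transcription factor that specifies Th17 cells. The paper lists purchased C57BL/6NJ mice as WT and a knock-in line provided by another laboratory. Whether the WT donors of these libraries were littermates is not given, so genotype cannot be told apart from a possible difference of substrain or colony. Mice were generally 6 to 12 weeks old. The labels call the second group N275D or Mut. Whether its donors carried 1 or both altered alleles is not given in the sources used here. Neither is whether libraries came from separate mice or cultures, so the spread between libraries may be partly technical. As the knock-in is constitutive, the naive T cells and their precursors carried it as well.

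Metallothioneins are small cysteine-rich proteins that hold zinc and copper ions. When free zinc in the cell rises, MTF-1, the product of *Mtf1*, binds metal response elements in DNA, switches on the metallothionein genes and *Slc30a1*, whose product pumps zinc out across the plasma membrane, and lowers *Slc39a10*. Transporters of the ZIP family (*Slc39a* genes) move zinc into the cytosol, and those of the ZnT family (*Slc30a* genes) move it out of the cytosol or into organelles. In T cells, ZIP6 has been linked to zinc entry on T cell receptor engagement and ZIP8 to zinc release from lysosomes after activation.

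The sequences shown are matches to the core of the metal response element near the annotated starts of *Mt2*, *Mt1* and *Slc30a1*, the 3 members with more than 1 match. *Mt2* and *Mt1* lie in tandem on chromosome 8 (GRCm38, plus strand, 94172618 to 94173567 and 94178883 to 94180327), with 5315 bases between them, next to *Mt3* and *Mt4*. The core of the element was searched as TGCACNC or TGCGCNC on both strands, in RefSeq windows of 300 bases (GRCm38.p6, 250 before and 50 after the annotated start). The 250 bases before the start of *Mt2*, chr8:94172368-94172617, plus strand, are shown with the 3 matches in capitals, the last of which is on the other strand and overlaps a GCGTG hypoxia element core.
Mt2 promoter: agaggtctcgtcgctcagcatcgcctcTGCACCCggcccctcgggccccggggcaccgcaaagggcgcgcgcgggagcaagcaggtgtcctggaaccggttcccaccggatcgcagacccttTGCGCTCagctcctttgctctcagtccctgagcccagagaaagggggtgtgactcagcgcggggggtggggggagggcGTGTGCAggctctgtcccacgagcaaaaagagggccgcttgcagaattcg

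For *Mt1* and *Slc30a1* the window reaches past another annotated start of the gene, so only each match with its flanks is shown, with the core in capitals.
Mt1 site 1, chr8:94179058-94179080: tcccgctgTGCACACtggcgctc
Mt1 site 2, chr8:94179083-94179105: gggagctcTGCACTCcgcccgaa
Mt1 site 3, chr8:94179101-94179123: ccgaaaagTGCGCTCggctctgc
Slc30a1 site 1, chr1:191906730-191906752: ggggttccGAGTGCAaagcaaag
Slc30a1 site 2, chr1:191906803-191906825: tccgggccGAGCGCAgtcgccgc

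The whole *Mt2* window held 4 matches, that of *Mt1* held 3 and that of *Slc30a1* held 2, whereas 0 matches were found in the *Mtf1* window and in either window of *Slc39a10*. Among 32851 windows of the same length, 25.7% held at least 1 match, 7.11% at least 2, 1.97% at least 3 and 0.517% at least 4. *Slc39a8* had 1 match in the second of its 2 windows, and *Slc39a6* had no window. Hypoxia element cores (ACGTG or GCGTG, both strands) are the motif of HIF-1. They were found 2 times in each of the *Mt1* and *Mt2* windows and 1 time in that of *Slc30a1*. The second window of *Slc39a8* held 3, with 2 of these 3 overlapping. Of all windows, 43.8% held at least 1 such core, 20.6% at least 2 and 8.93% at least 3. The half-site AGGTCA that ROR factors read was found 1 time in each window of *Slc39a8*, was found in none of the windows of the other members, and was held by 16.3% of all windows. A match is a run of letters and does not show that a factor binds there.

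**Figure D1:**
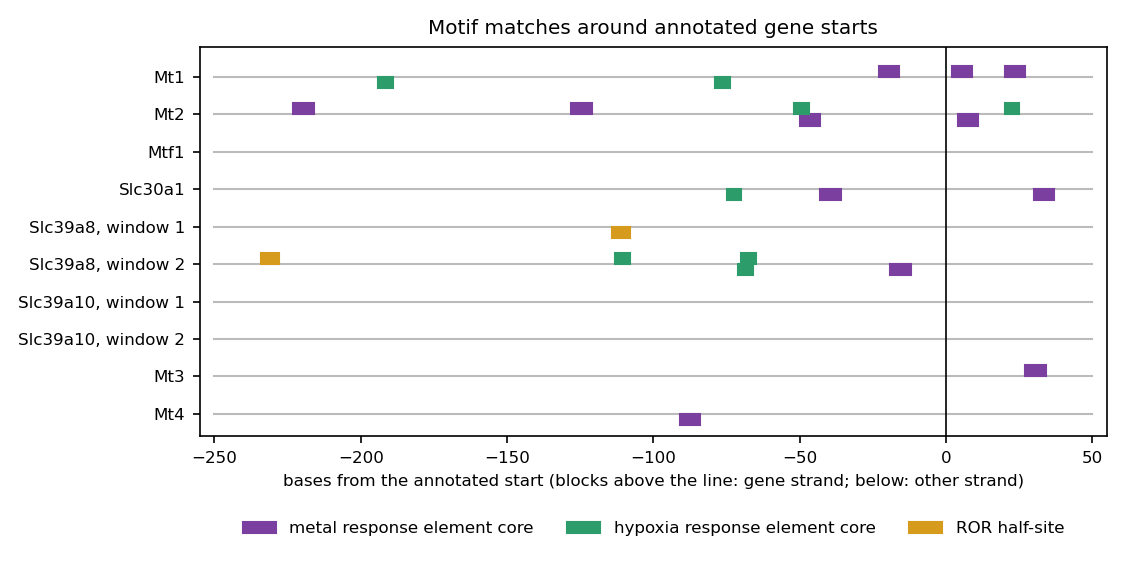
Motif matches around annotated gene starts; the x axis gives bases from the start (0), each line is a window of 300 bases, and blocks above or below a line are matches on the gene strand or on the other strand. More than 1 metal response element core lies in the windows of *Mt1*, *Mt2* and *Slc30a1*. The second window of *Slc39a8* and the windows of *Mt3* and *Mt4* hold 1 each. The windows of *Mtf1* and *Slc39a10* hold 0 matches of any of the 3 motifs.

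Values are normalized reads, which are the reads per gene multiplied by a library factor close to 1. Libraries held 17659000 to 18510900 reads on genes, and the lowest member value in any library was 296 normalized reads (*Slc30a1*). All 7 passed the filter of a mean of at least 10 normalized reads, as did 11908 genes in total, which were tested together with limma on log2(normalized reads + 1), a scale on which changes of low genes come out smaller. With 3 libraries against 3, an exact two-sided permutation test of one gene cannot give a p below 0.1. Among markers of Th17 cells, *Il17a*, *Il17f*, *Il23r*, *Ccr6*, *Rora*, *Cd4* and *Cd3e* were detected in every library. Their levels were not even between genotypes. *Cd4* (log2 fold change -0.27) and *Cd3e* (-0.22) were lower in N275D cells, and the other markers named were higher (0.23 to 0.70). Each had an adjusted p under 0.05 from limma, as had 50.9% of all tested genes.

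Between the genotypes 2 of the 7 members changed, *Slc39a10* upward and *Slc39a6* downward, whereas both metallothioneins, *Mtf1*, *Slc30a1* and the importer gene *Slc39a8* did not pass the test. This share (28.6%) has to be read against the 50.9% of all tested genes that passed at an adjusted p under 0.05 (24.7% higher and 26.1% lower in N275D). The count was 1 without WT replicate 2 or N275D replicate 2, and 4 without WT replicate 1. None of the 7 reached 2-fold, which 3.59% of all tested genes did. The genotypes did not overlap in 2 of the 7 members, compared with 57.7% of all tested genes. The median log2 fold change of the 7 was -0.0023, and that of all tested genes was -0.0026.

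*Mt1* had 6256, 6659 and 7061 normalized reads in WT replicates 1 to 3, and 6671, 6801 and 6453 in N275D replicates 1 to 3. The N275D libraries all fell inside the range spanned by the WT libraries. With means of 6658 ± 402 in WT and 6641 ± 176 in N275D cells (SD, n = 3 each), *Mt1* differed by -0.0023 in log2 fold change (95% interval -0.09 to 0.09, adjusted p = 0.969 from limma), which as a fold spans 0.938 to 1.06.

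*Mt2* had 5083, 6140 and 6079 normalized reads in the WT replicates, and 5281, 5931 and 5387 in the N275D replicates. WT replicate 1 was the lowest of the 6 libraries, and the N275D libraries lay between it and the other WT libraries. The means were 5767 ± 594 in WT and 5533 ± 349 in N275D cells (SD, n = 3 each). In log2 fold change this was -0.056 (95% interval -0.19 to 0.07, adjusted p = 0.464 from limma). WT replicate 1 decided this outcome: without it, *Mt2* was lower in N275D cells by a log2 fold change of -0.14 and passed the test (adjusted p = 0.0261 from limma).

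In WT libraries the spread of *Mt1* and *Mt2* was well above what read counting gives. The SD was 4.93 times the counting SD for *Mt1* and 7.82 times for *Mt2* in WT, and 2.16 and 4.70 times in N275D cells. The genes moved together from library to library only in part: WT replicate 1 was the lowest library for both, at 0.940 of its group mean for *Mt1* and 0.881 for *Mt2*, and N275D replicate 2 was the highest of its group for both, at 1.02 and 1.07. The highest WT library, however, was replicate 3 for *Mt1* and replicate 2 for *Mt2*. The lowest N275D library was replicate 3 for *Mt1* and replicate 1 for *Mt2*. Within a library there were 1.08 to 1.26 reads of *Mt1* per read of *Mt2*, and the genotypes overlapped in this ratio. Together they took 0.0686% ± 0.0051 of the normalized reads in WT and 0.0688% ± 0.0027 in N275D cells (SD, n = 3 each). The longest run of identical bases in their transcripts is 20, and 0% of the 100-base runs of each of the 7 members occur in a transcript of another gene.

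*Mtf1* (chromosome 4, 124802549 to 124849800) had the lowest SD relative to its mean of the 7 in each genotype. It had 793, 822 and 842 normalized reads in WT and 829, 807 and 835 in N275D libraries, and the N275D values again fell within the WT range. The means of 819 ± 24.4 and 824 ± 15.1 (SD, n = 3 each) gave a log2 fold change of 0.0081 (95% interval -0.10 to 0.12, adjusted p = 0.907 from limma).

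*Slc30a1* (chromosome 1, 191906697 to 191913248) had 330.0, 308 and 303 normalized reads in WT and 314 (N275D replicate 1), 296 (replicate 2) and 318 (replicate 3) in mutant libraries, and the genotypes overlapped. The log2 fold change was -0.02 (95% interval -0.17 to 0.13, adjusted p = 0.851 from limma), with means of 313 ± 14.6 and 309 ± 11.8 (SD, n = 3 each). For both *Mtf1* and *Slc30a1* the SD between libraries was no larger than the counting SD (0.527 to 0.852 times), so their spread was no larger than read counting alone gives.

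The importers behaved differently from one another. *Slc39a10* (chromosome 1, minus strand, 46807544 to 46925776), which encodes the plasma membrane importer ZIP10, had 1413, 1468 and 1345 normalized reads in WT and 1907, 1837 and 1962 in N275D libraries. Every N275D library exceeded every WT library, and the gap between the groups was wider than the spread within either. The mean rose from 1408 ± 61.6 to 1902 ± 62.9 (SD, n = 3 each), or by 0.43 ± 0.05 (SE) in log2 fold change (95% interval 0.33 to 0.53, adjusted p = 1.37e-06 from limma). The ratio of the means was 1.35.

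*Slc39a6* (chromosome 18, minus strand, 24579881 to 24603817), which encodes ZIP6, had 1765, 1880 and 1680 normalized reads in WT and 1615, 1537 and 1590 in N275D libraries. The groups did not overlap, but the lowest WT library and the highest N275D library were close. The mean went from 1775 ± 101 to 1581 ± 40.0 (SD, n = 3 each), which was -0.17 ± 0.05 (SE) in log2 fold change (95% interval -0.27 to -0.06, adjusted p = 0.00879 from limma). The call was lost under quantile normalization (adjusted p = 0.0636), without WT replicate 2 (0.0538) and without N275D replicate 2 (0.0525), all from limma.

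*Slc39a8* (chromosome 3, 135816882 to 135888572), which encodes ZIP8, had 592, 519 and 483 normalized reads in WT and 547, 628 and 556 in N275D libraries. WT replicate 1 exceeded 2 of the N275D libraries, so that the groups overlapped. The means were 532 ± 55.6 and 577 ± 44.4 (SD, n = 3 each). In log2 fold change this was 0.12 (95% interval -0.04 to 0.28, adjusted p = 0.202 from limma). Without WT replicate 1, the log2 fold change of *Slc39a8* was 0.20 and the gene passed the test (adjusted p = 0.0401 from limma).

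**Figure D2:**
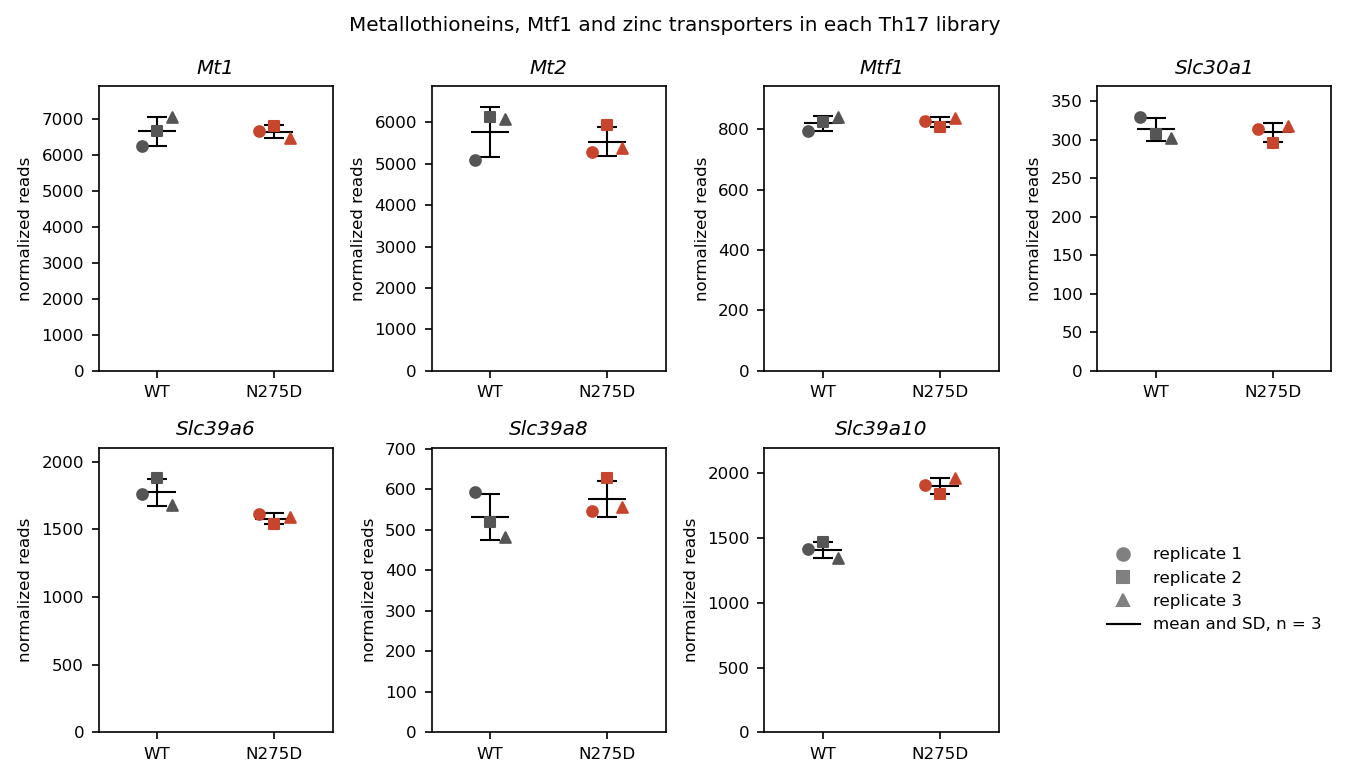
Normalized reads of the 7 genes in each library (y axes start at 0); symbols give the replicate number, and black bars the mean and SD of 3 libraries. Only for *Slc39a10* (1345 to 1468 against 1837 to 1962) and *Slc39a6* (1680 to 1880 against 1537 to 1615) do the WT and N275D libraries not overlap.

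Between genes, levels were compared as normalized reads per kb of exon, with exons merged over all GENCODE transcripts. *Mt2* stood highest, at 9809 ± 1009.5 per kb in WT and 9410 ± 593 in N275D cells, followed by *Mt1* at 5344 ± 323 and 5330 ± 141 (SD, n = 3 each). This order of the metallothioneins rests on the lengths used, as *Mt1* had more reads than *Mt2* in every library. Merged exons are 588 bases for *Mt2* and 1246 for *Mt1*, and the longest transcripts are 511 and 1085 bases. Which length the cells' transcripts had was not tested. *Mt1* stood at 13.0 times the level of *Slc39a6*, the next of the 7, but 2 transporters that are not members lay between them, *Slc39a7* with 1896 and *Slc39a1* with 1048 per kb (means of 6 libraries). *Slc39a6* had 436 ± 24.7 and 388 ± 9.82 per kb, and *Slc39a10* had 231 ± 10.1 and 312 ± 10.3, so that the gap between these importers narrowed from WT to N275D cells. *Mtf1* (92.0 ± 2.74 and 92.5 ± 1.70), *Slc39a8* (69.4 ± 7.26 and 75.3 ± 5.79) and *Slc30a1* (59.8 ± 2.79 and 59.0 ± 2.26) were lowest. Within each genotype no neighbours in this order overlapped, but the order of *Mtf1* and *Slc39a8* depended on the length used: per kb of the longest transcript, *Slc39a8* had 132 and *Mtf1* 108 (means of 6 libraries). By that length *Slc39a14* (471) also lay between *Mt1* and *Slc39a6* (432).

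**Figure D3:**
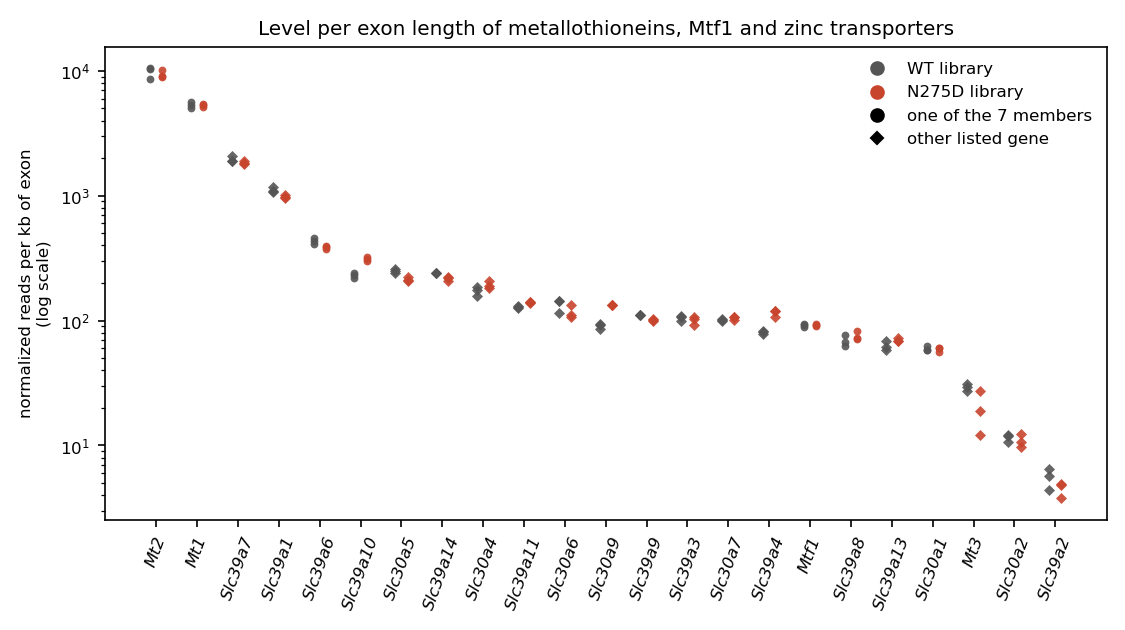
Normalized reads per kb of exon (log scale) in each library for the 23 metallothionein, *Mtf1* and zinc transporter genes that passed the filter, ordered by their mean; circles are the 7 members. *Mt2* and *Mt1* lie above all transporters, and among the transporters *Slc39a7* and *Slc39a1* lie above the members *Slc39a6* and *Slc39a10*.

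The families to which the members belong were listed in full. Of the 4 metallothionein genes, *Mt3*, best known from brain, was near the filter: it had 29.3, 33.3 and 31.4 normalized reads in WT and 19.97, 29.1 and 12.8 in N275D libraries. It passed with a log2 fold change of -0.65 (95% interval -1.20 to -0.10, adjusted p = 0.0462 from limma), a call that held in 6 of 16 alternative settings. The call was lost in both count-based tests (adjusted p = 0.0598 by edgeR and 0.163 by DESeq2). In limma it was lost with weights per library (adjusted p = 0.0578), without a trended prior (0.0960) and with the filter of a mean above 0 (0.0901). It was also lost without any of 5 single libraries, WT replicate 1 (adjusted p = 0.0726), WT replicate 2 (0.108), WT replicate 3 (0.0602), N275D replicate 1 (0.0855) or N275D replicate 3 (0.229), all from limma. *Mt4* had at most 2.0 normalized reads in a library and was not tested.

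Of the 10 ZnT genes, 9 were in the table and 7 were tested, of which 1 rose, 1 fell and 5 were not called (28.6% called, against 50.9% of all tested genes). Their median log2 fold change was -0.02. *Slc30a9*, whose product moves zinc out of mitochondria, had 1140, 1157 and 1061 normalized reads in WT and 1640, 1660 and 1662 in N275D libraries. It rose in every N275D library, by 0.56 ± 0.05 (SE) in log2 fold change (adjusted p = 6.92e-08), the largest value of the tested ZnT and ZIP genes. *Slc30a5*, which loads zinc into the secretory pathway, had 1806, 1873 and 1740 normalized reads in WT and 1511, 1553 and 1625 in N275D libraries, and it fell without overlap (log2 fold change -0.21 ± 0.05 SE, adjusted p = 0.00132). Its partner *Slc30a6* was not called (-0.18, adjusted p = 0.119) but passed without WT replicate 3 (adjusted p = 0.00343) or N275D replicate 3 (0.0308). With all libraries, *Slc30a6* also passed when limma used weights per library (adjusted p = 0.00665). *Slc30a4* missed the threshold (0.15, adjusted p = 0.0621) but passed without WT replicate 1 (0.0240) or N275D replicate 1 (0.0446). With all libraries, *Slc30a4* also passed by edgeR (adjusted p = 0.0476). *Slc30a7* (0.048) and *Slc30a2* (-0.080) were not called. *Slc30a3* and *Slc30a10* were under the filter, and *Slc30a8* was not analysed here.

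Of the 14 ZIP genes, 12 were tested, of which 2 rose, 4 fell and 6 were not called (50%, close to the 50.9% of all tested genes). Their median log2 fold change was -0.07. Beside *Slc39a10*, the riser was *Slc39a4*, the importer known for dietary zinc uptake in the gut. It had 257, 244 and 252 normalized reads in WT and 369, 332 and 371 in N275D libraries, without overlap, and rose by 0.51 ± 0.07 (SE) in log2 fold change (adjusted p = 2.82e-05). Beside *Slc39a6*, the genes that fell were *Slc39a1* (log2 fold change -0.18, adjusted p = 0.00321), a plasma membrane importer, *Slc39a14* (-0.15, adjusted p = 0.00556), which also carries iron, and *Slc39a9* (-0.13, adjusted p = 0.0257), all by limma. Each of these falls was small, with the N275D mean at 0.885 (*Slc39a1*), 0.900 (*Slc39a14*) and 0.914 (*Slc39a9*) of the WT mean. Under quantile normalization the calls of *Slc39a1* (-0.11, adjusted p = 0.0530) and *Slc39a14* (-0.086, adjusted p = 0.0948) were lost. *Slc39a9* lost its call by DESeq2 (adjusted p = 0.0878) and without any single one of 5 libraries, with adjusted p of 0.0576 without WT replicate 1, 0.0511 without WT replicate 2, and 0.0932, 0.0698 and 0.0525 without N275D replicates 1, 2 and 3. *Slc39a14* lost its call without N275D replicate 2 (adjusted p = 0.0511), and without that library 3 ZIP genes were called in all. Under quantile normalization 3 ZIP genes were called as well. *Slc39a7*, the importer of the endoplasmic reticulum and the most abundant ZIP transcript, had 5033 ± 259 normalized reads in WT and 4767 ± 126 in N275D cells (SD, n = 3 each) and was not called (adjusted p = 0.131). *Slc39a11* did not overlap (423 to 440.1 against 467 to 476) but missed the threshold (adjusted p = 0.0832). It passed, as higher, with weights per library (adjusted p = 0.0447) and without a trended prior (0.0357), both from limma. *Slc39a13* was not called (0.15, adjusted p = 0.101) but passed without WT replicate 1 (0.0281). *Slc39a2* had the lowest log2 fold change of the family (-0.26, 95% interval -0.81 to 0.29) and few reads (13.0 to 22.2), and *Slc39a3* was at -0.068.

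Metallothioneins also bind copper, and of 11 copper handling genes tested, 3 rose, 3 fell and 5 were not called (54.5% called, close to the 50.9% of all tested genes). *Atp7b*, a copper-exporting ATPase, was the only gene of the lists on metals to pass 2-fold. It had 42.4, 48.4 and 48.1 normalized reads in WT and 157, 164 and 154 in N275D libraries, and rose in all 3 by 1.75 ± 0.12 (SE) in log2 fold change (adjusted p = 4.98e-09). *Ccs*, the copper chaperone of superoxide dismutase 1 (0.26, adjusted p = 0.00347), and *Sco1*, which delivers copper to cytochrome c oxidase (0.25, adjusted p = 0.000736), also rose by limma. *Sco2*, which acts at the same step as *Sco1*, fell (-0.43, adjusted p = 0.000182 from limma), as did *Cox17* (-0.17, adjusted p = 0.0398) and *Commd1* (-0.15, adjusted p = 0.0308). The calls of *Cox17* and *Commd1* were lost by DESeq2 (adjusted p = 0.0608 and 0.109). The genotypes overlapped for *Cox17*, and its call was also lost with library weights (0.0903), without a trend (0.152), with the filter of a mean above 0 (0.0750), under quantile normalization (0.0752), and without WT replicate 3 (0.109), N275D replicate 1 (0.151) or N275D replicate 3 (0.175), and that of *Commd1* without WT replicate 3 (0.0740) or any one N275D replicate (0.0564, 0.104 and 0.0732). The copper importer *Slc31a1* was not called (-0.091, adjusted p = 0.148). *Atp7a*, the other copper ATPase, was not called (-0.17, adjusted p = 0.0609) but passed, as lower, without WT replicate 3 (0.0437) or N275D replicate 3 (0.0256). With all libraries it also passed, as lower, under quantile normalization (adjusted p = 0.0165) and with library weights (0.0227), both from limma.

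**Figure D4:**
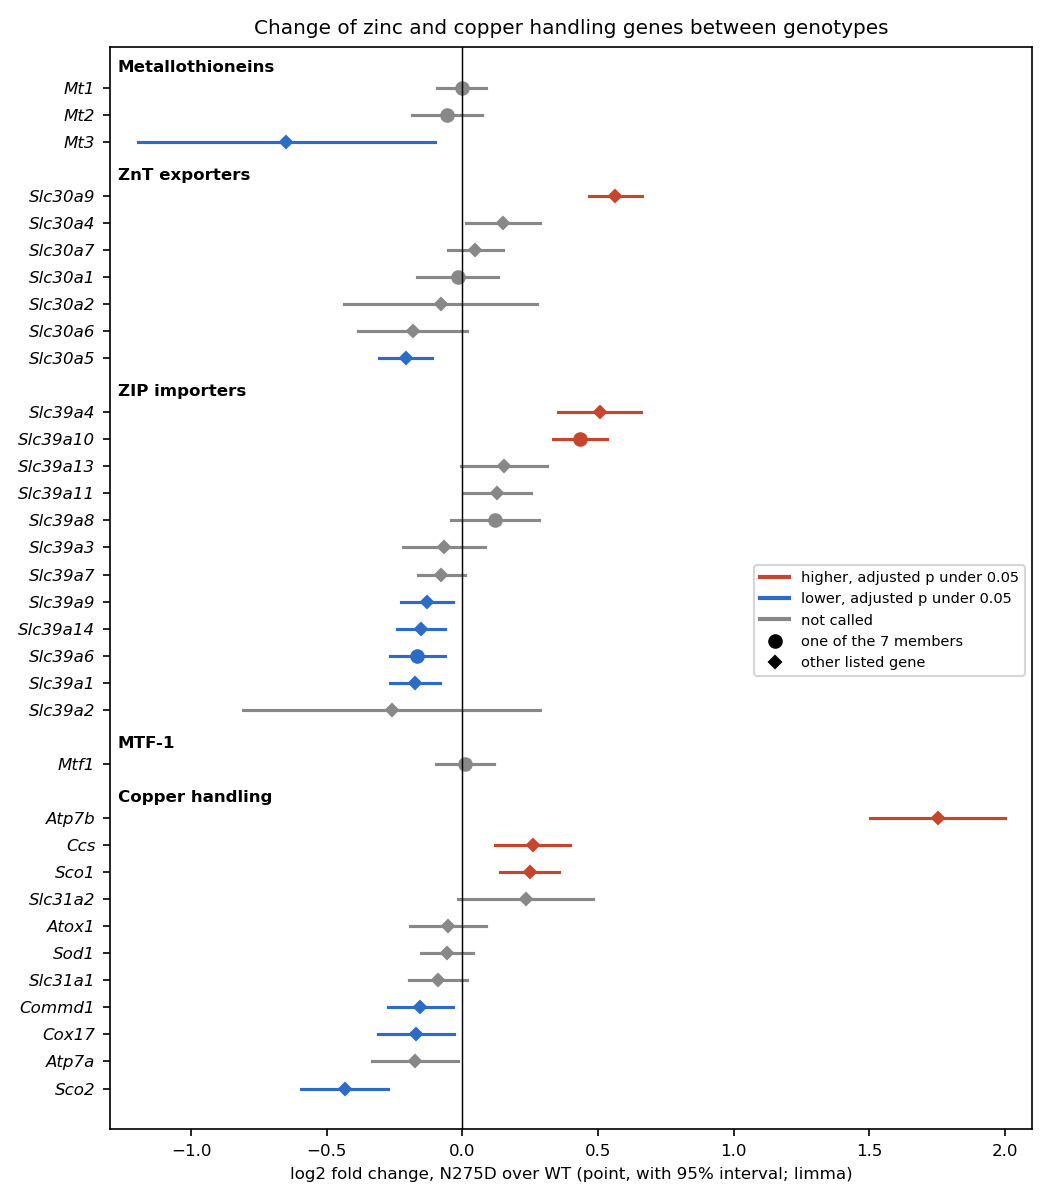
Log2 fold change of N275D over WT cells with its 95% interval from limma, for the tested metallothioneins, ZnT and ZIP transporters, *Mtf1* and copper handling genes; colours give the call at an adjusted p under 0.05. The intervals of *Mt1*, *Mt2*, *Mtf1* and *Slc30a1* cover 0, *Slc30a9* (0.56), *Slc39a4* (0.51) and *Slc39a10* (0.43) lie to the right, and *Atp7b* (1.75) stands alone.

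For each member, the 3 tested genes outside these lists with the most similar pattern were taken, by the root-mean-square difference of log2 values over the 6 libraries after centring each gene on its own mean. For *Slc39a10* they were *Tbc1d1* (0.0181), *Klf6* (0.0202) and *Lrrc8b* (0.0214), with log2 fold changes of 0.42, 0.46 and 0.41. For *Slc39a6* they were *Ly9* (0.0121), *Kif14* (0.0182) and *Immp1l* (0.0198), with log2 fold changes of -0.18, -0.17 and -0.17. The nearest pattern to that of *Mt1* was that of *Phf14* (0.0137), and for *Mt2* it was *Pik3cb* (0.0371), a looser match. *Wdr60* (0.0095) was nearest to *Mtf1*, *Sp110* (0.0113) to *Slc30a1* and *Zfp68* (0.0239) to *Slc39a8*. Patterns over 6 libraries of 2 genotypes are easily matched among the 11908 genes tested, so likeness here is a description only.

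Transcripts of other cells were low except for *Ebf1*, and they were not level between genotypes. In bulk RNA fewer cells of a type cannot be told apart from less RNA per cell. *Ebf1*, listed as a B cell marker, had 967 to 995 normalized reads in WT and 1414 to 1538 in N275D libraries. Its log2 fold change was 0.58 (adjusted p = 5.62e-08 from limma). Of 6 B cell markers, 5 were tested and 4 were called higher in N275D cells, where 24.7% of all tested genes were called higher. Their summed level was 1117 to 1155 normalized reads in WT and 1687 to 1754 in N275D libraries, or 150.4 to 160.1 and 214 to 273 without *Ebf1*, and *Ms4a1* was at or below 1.01 in WT and 9.88 in N275D libraries. Of 6 myeloid markers 3 were tested, with 1 called higher and 1 lower. Their sum was 89.8 to 108 in WT and 105 to 129.8 in N275D libraries, and *Csf1r* did not exceed 3.99. Of the 4 CD8 T and natural killer markers in the table, 3 were tested and 2 were called higher, with sums of 182 to 195 and 251 to 281, and *Klrb1c* was listed at 0 in every N275D library. *Sox13* was the 1 gamma delta T cell marker in the table (18.2 to 31.4 against 35.1 to 38.5) and was called higher. The part of these cells in the change of *Slc39a10*, *Slc39a4*, *Slc30a9* or *Atp7b* was not tested. Exons of *Slc39a7* and *Slc39a2* overlap those of another gene on the same strand (*Gm20427* and *Mettl17*), which makes their counts less certain. Exons of *Mt2*, *Mtf1* and *Slc30a1* overlap those of genes on the other strand (*Gm45774*, *1110065P20Rik* and *1700034H15Rik*). So do exons of the tested transporters *Slc39a9* (*Erh*), *Slc39a13* (*Psmc3*), *Slc30a4* (*4930417H01Rik*) and *Slc30a7* (*Gm43106* and *Gm6649*). The paper describes the libraries as strand-specific, but whether the counting used strand is not given in the sources used here.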

How the data were processed

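The 6 libraries were grouped by the genotype in their labels. Per the methods, the authors trimmed the reads, mapped them with STAR on mm10, assigned them to genes by featureCounts and used DESeq2 for the comparison. Each deposited signal value is a whole number of reads times the factor of its library (100% of values, within 1e-06). The deposited log2 fold changes, q-values and group averages, which were made by the authors, were not used. The deposited transcript numbers (a whole-number score column made by the authors, as transcripts per gene) were not used either.

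Genes with a mean of at least 10 were tested with limma (3.58.1, R 4.3.3) on log2(value + 1) with a trended prior and Benjamini-Hochberg adjustment at 0.05. The members and lists were chosen with earlier results of these data known. By rule, the genes named are the members, the listed metal genes that were called or had the lowest or highest fold change, and the 3 nearest patterns of each member; other listed genes were named after their values were seen. Alternatives were other pseudocounts, filters, TMM and quantile scaling, an untrended prior, weights per library, a block for replicate number, leaving out libraries in turn, and edgeR (4.0.16) and DESeq2 (1.42.0) on recovered reads. The main test was tested on simulated data. Coordinates and promoter windows are RefSeq GRCm38.p6 (mm10), and exon lengths are from GENCODE vM21. Protein sequences were not used here. A marker gene is not reported here.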

Additional observations from a re-analysis of the deposited data

How the results depend on the processing

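*Slc39a10* kept its direction and its call under all 17 alternatives, with log2 fold changes of 0.40 to 0.48. Quantile normalization gave 0.065 for *Mt1*, 0.028 for *Mt2*, 0.017 for *Slc39a7* and 0.0070 for *Sod1*, which turned their sign without a call, and -0.12 for *Slc39a6*, which lost its call (adjusted p = 0.0636). It left 1 of the 7 members and 3 ZIP genes called; the median of all tested genes was -0.018 under it. *Mt1* was also above 0 with library weights (0.033), by edgeR (0.0040) and by DESeq2 (0.0011). With single libraries left out, the log2 fold change ranged from -0.046 to 0.041 for *Mt1*, from -0.14 to -0.0086 for *Mt2*, from -0.015 to 0.028 for *Mtf1*, from -0.043 to 0.020 for *Slc30a1*, from -0.21 to -0.12 for *Slc39a6*, from 0.054 to 0.20 for *Slc39a8* and from -0.094 to 0.021 for *Atox1*. The members called then ranged from 1 (without WT replicate 2 or N275D replicate 2) to 4 (without WT replicate 1), and the ZIP genes called from 3 to 7. The cause was not tested. With the longest transcript as length, levels per kb were 11057 for *Mt2*, 6129 for *Mt1*, 432 for *Slc39a6*, 301 for *Slc39a10*, 132 for *Slc39a8* and 108 for *Mtf1*.

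The deviations of same-numbered libraries from their group means correlated across genes at -0.0455, 0.0407 and -0.0828, and not every library correlated best with its own number. Within groups of 3 libraries such deviations are tied to one another. The values therefore cannot decide whether same-numbered libraries shared a mouse, culture or batch. With the replicate number as a block, 2 members, 2 ZnT, 5 ZIP and 5 copper genes were called, and *Slc39a9* (adjusted p = 0.0635) and *Commd1* (0.0572) lost their calls. Depth limits *Mt3*, *Mt4*, *Slc30a2* and *Slc39a2*, which had few reads; the adjusted p of *Mt3* ranged from 0.00950 to 0.229 over its alternatives.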
